A study of Mus musculus with 6 samples.

Results

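The genes described here encode the matrix outside collagen: glycoproteins, proteoglycans, and the enzymes and helpers that crosslink or process matrix proteins. They number 31 of the 20659 named genes on the array. They were chosen by name for their known place in the matrix, with earlier results of these data already known. Every probe whose transcript accession matched 1 of them was taken. All 31 had a probe that could be tested, and 42 of their 45 probes passed the filter on dim signal. Each gene is represented by its brightest probe, and its other probes are given beside it.

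Total RNA came from 6 samples of C2C12, an established mouse line of myoblasts, the precursor cells that fuse into multinucleate muscle fibres in culture. In the si-lncMGPF group (n = 3) an siRNA was directed at lncMGPF, a long noncoding RNA, and the si-NC group (n = 3) had a control siRNA. Both groups shared the cell line and 2 days of differentiation, and RNA was read on 1-colour Agilent arrays. Nothing in the labels ties the replicates to separate cultures, and the p-values therefore cover the spread among these 6 samples, possibly technical. The level of the targeted RNA was not analysed here.

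The matrix holds cells in place and stores growth factors. Fibronectin and the fibrillin and elastin fibres give it a scaffold, small leucine-rich proteoglycans coat collagen fibrils, and matricellular proteins bind to it and act on cells without bearing load. In muscle the basement membrane, built with nidogens, perlecan and agrin, wraps each fibre, and lysyl oxidases crosslink collagen and elastin. Myoblasts make part of this matrix themselves.

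No matrix gene passed the threshold between si-lncMGPF and si-NC. Limma called 0 of the 42 tested matrix probes at an adjusted p below 0.05, against 0.105% of all 24661 tested probes, and 0 of the 31 genes, against 0.147% of all 14265 tested genes. At an unadjusted p below 0.05 there were 6 of 31 matrix genes (19.4%), 2 with a positive and 4 with a negative difference, where 14.2% of all tested genes reached it (6.04% positive, 8.14% negative). Of the tested matrix probes 7 of 42 reached it, against 15.8% of all tested probes. A difference of at least 0.3 in size was seen for 3 of 31 matrix genes (9.68%), Lum, Nid2 and Thbs2, against 18.6% of all tested genes. The 3 si-lncMGPF arrays did not overlap the 3 si-NC arrays for 6 matrix genes (19.4%), 2 above and 4 below, against 22.4% of all tested genes (9.7% above, 12.7% below). None of these shares of matrix genes was far above that of the whole array. The median log2 difference (si-lncMGPF minus si-NC) was -0.03 over the 31 genes and 0.02 over all tested genes, and 13 of 31 were above 0, against 54% of all genes.

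The intervals bound how large a difference between the groups the limma fit leaves possible. On the probe that stands for each gene, the 95% interval of the difference lay within 2-fold in either direction for all 31 matrix genes, against 92.2% of all tested genes, and for 26 of the 31 it lay within 1.5-fold, against 73.1%. On these brightest probes the widest reach was 1.66-fold upward and 1.78-fold downward. Over all 42 tested matrix probes the interval lay within 2-fold for 41, the exception being the second Sparc probe, whose interval of -1.25 to -0.19 reached 2.38-fold downward. The fit had no slide term, so any difference between the slides described next enters both the estimated differences and the spread behind these intervals. With slide as a fixed block 22 matrix genes kept the sign of their difference and 9 turned it. Slide 2 held no si-NC array, so that fit rests on si-lncMGPF replicate 1 alone against the si-NC arrays. The intervals therefore do not bound a difference with slide taken out.

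The scan identifiers in the file headers show 2 slides. Slide 2 carried si-lncMGPF replicates 2 and 3, and slide 1 carried si-lncMGPF replicate 1 with all 3 si-NC arrays. The 75th percentile of the signal, by which each array was scaled, ranged from 492.1 to 923 intensity units over si-lncMGPF arrays and from 688.2 to 930.7 over si-NC arrays. The slide 2 arrays, si-lncMGPF replicates 2 and 3, had the lowest values, 580.2 and 492.1. Their negative-control net signal was 37.3 and 42.5, against 20.1 to 21.8 on slide 1. Probes above background made up 57.3% and 56.9% on these arrays, against 64.1% to 65.3% on slide 1. The part of this in the values of dim genes was not tested. In the brightest of 5 equal bins of tested genes, which held 15 of the 31 matrix genes, the median difference from the si-NC arrays was -0.14 for si-lncMGPF on slide 1 and 0.14 on slide 2. All 9 skeletal muscle markers were well above background on all arrays, with a summed linear signal of 94.4 to 117.5 times the array's 75th percentile in si-lncMGPF and 114 to 122.2 times it in si-NC. Of the 9, 4 had a positive and 5 a negative log2 difference, with a median of -0.02 and 0 called. The differences ran from the -0.38 of Ttn, which encodes titin (limma adjusted p = 0.214), to 0.13. Myog, a myogenic transcription factor, had 0.09. Of 6 fibroblast markers 3 were well above background on all arrays and Tcf21 on none, with a sum of 1.72 to 2.42 in si-lncMGPF and 1.92 to 1.99 in si-NC on the same scale. The part of either list in the matrix values was not tested. In a bulk sample fewer cells of a type and less RNA per cell cannot be told apart.

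Promoter sequence is shown for 3 matrix genes that were picked by their values and of which none was called. These are Thbs2, which had the highest difference, Hspg2, which was below si-NC on both its probes, and Sparc, whose 2 probes differed. The sequences are RefSeq's, on build GRCm38.p6, and run 5′ to 3′ over the 250 bases before the annotated start. They lie at chr17:14694263-14694512 (minus strand), chr4:137468553-137468802 (plus strand) and chr11:55420081-55420330 (minus strand). Capitals mark 3 motifs searched on both strands: the TATA box TATAAA, the E-box CAGCTG, a form that myogenic factors bind, and the Smad element CAGAC.
Thbs2: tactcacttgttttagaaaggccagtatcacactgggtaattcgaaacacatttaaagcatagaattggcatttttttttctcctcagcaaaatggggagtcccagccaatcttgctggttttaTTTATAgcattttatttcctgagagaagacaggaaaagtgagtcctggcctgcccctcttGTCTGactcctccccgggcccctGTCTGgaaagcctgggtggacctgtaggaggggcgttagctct
Hspg2: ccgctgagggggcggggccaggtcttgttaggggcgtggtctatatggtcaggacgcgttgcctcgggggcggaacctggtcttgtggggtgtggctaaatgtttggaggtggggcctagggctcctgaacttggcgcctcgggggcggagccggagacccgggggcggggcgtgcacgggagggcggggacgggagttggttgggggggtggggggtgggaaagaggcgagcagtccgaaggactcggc
Sparc: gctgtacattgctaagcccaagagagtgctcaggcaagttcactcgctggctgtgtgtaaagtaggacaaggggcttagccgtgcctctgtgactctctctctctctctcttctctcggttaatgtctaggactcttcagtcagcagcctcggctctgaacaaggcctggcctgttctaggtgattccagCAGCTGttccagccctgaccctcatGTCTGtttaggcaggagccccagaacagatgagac
In the Thbs2 window lay 1 TATA box and 2 Smad elements, each in its reverse form, in the Sparc window 1 E-box and 1 Smad element, and in the Hspg2 window none of the 3. Promoters were listed for 21 of the 31 genes (28 windows). The TATA box was found in 21.4% of these windows and 12.4% of all 32851 listed, the E-box in 17.9% and 13%, and the Smad element in 39.3% and 42.2%. No match overlaps another in these 3 windows, and a match describes only the letters in the window.

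Among the small leucine-rich proteoglycans, 2 of 6 genes had a positive and 4 a negative difference, with a median of -0.04 and 0 called. Lum encodes lumican, which governs collagen fibril spacing. On si-lncMGPF arrays 1, 2 and 3 its log2 normalised signal was -2.54, -2.18 and -2.24, against -1.84, -1.69 and -1.80 on si-NC arrays. Every si-lncMGPF array lay below every si-NC array. The difference was -0.54 (SE 0.12), or 1.46-fold lower, with the smallest p of the 31 genes, and limma's adjusted p was 0.191. It was -0.76 on slide 1, from 1 array, and -0.43 on slide 2.

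Dcn encodes decorin, a fibril-coating proteoglycan that binds TGF-beta. Its signal was 3.66, 4.11 and 4.03 on si-lncMGPF arrays, against 4.08, 4.18 and 4.19 on si-NC arrays. The groups overlapped, with si-lncMGPF replicate 1 the lowest of all, and the difference was -0.22 (SE 0.14, limma adjusted p = 0.445). Dcn and Lum are next to each other in the RefSeq gene order. Their values on si-lncMGPF replicate 1 were each the lowest of the 6.

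Aspn encodes asporin, a relative of decorin. It read -2.25, -2.18 and -2.23 in si-lncMGPF, against -2.33, -2.28 and -2.37 in si-NC. The groups did not overlap, yet the difference was 0.11 (SE 0.08, limma adjusted p = 0.534). Its neighbours in the gene order are Ecm2 and Omd, both matrix genes, with differences of -0.34 and 0.25. Ecm2 was above background on 1 of 3 si-lncMGPF arrays and 3 of 3 si-NC arrays, and neither gene passed the threshold (limma adjusted p = 0.445 and 0.332). Bgn (biglycan), Ogn (mimecan) and Fmod (fibromodulin) had differences of -0.03, -0.05 and 0.05. Fmod was dim, well above background on 1 of 3 si-lncMGPF and 3 of 3 si-NC arrays, and had the widest interval of the 31 genes (-0.59 to 0.69).

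Of the basement membrane genes and large proteoglycans, 2 of 5 were positive and 3 negative, with a median of -0.14 and 0 called. Nid2 encodes nidogen-2, which bridges laminin and collagen networks. Its signal was 1.51, 1.13 and 1.20 on the si-lncMGPF arrays, against 1.69, 1.83 and 1.71 on the si-NC arrays. All si-lncMGPF arrays lay below all si-NC arrays, and the slide 2 arrays lay lowest. The difference was -0.46 (SE 0.12), or 1.38-fold lower, with a limma adjusted p of 0.221. It came to -0.23 on slide 1 and -0.58 on slide 2.

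Nid1 encodes the related nidogen-1. Its brightest probe read 4.54, 5.03 and 4.92 in si-lncMGPF, against 4.54, 4.62 and 4.59 in si-NC. The slide 2 arrays were above all others, while si-lncMGPF replicate 1 lay among the si-NC arrays. The difference was 0.25 (SE 0.14, limma adjusted p = 0.414), with -0.04 on slide 1 and 0.39 on slide 2. Its 2 other probes had differences of 0.22 and 0.20, and on the first of these the si-lncMGPF arrays (-1.04, -0.98 and -1.14) lay above the si-NC arrays (-1.36, -1.28 and -1.17). The nidogen genes thus stood on opposite sides of 0, and a difference between these genes was not tested.

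Hspg2 encodes perlecan, the large heparan sulfate proteoglycan of basement membranes. It read 4.49, 4.61 and 4.54 in si-lncMGPF, against 4.68, 4.87 and 4.81 in si-NC. A second probe read -1.21, -1.15 and -1.07 in si-lncMGPF, against -0.96, -0.93 and -0.97 in si-NC. On both probes the si-lncMGPF arrays lay below the si-NC arrays without overlap. The differences were -0.24 (SE 0.09, limma adjusted p = 0.286) and -0.19 (SE 0.08, limma adjusted p = 0.331). For the first probe the slide values were -0.30 and -0.21.

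Agrn encodes agrin, which clusters acetylcholine receptors at the neuromuscular junction. Its signal was 1.23, 1.53 and 1.498 in si-lncMGPF, against 1.53, 1.63 and 1.54 in si-NC, a difference of -0.14 (SE 0.11, limma adjusted p = 0.527). The low value of si-lncMGPF replicate 1 set it apart from the other 5 arrays. Vcan encodes versican, which binds hyaluronan. It read 2.00, 2.26 and 2.23 in si-lncMGPF, against 1.96, 2.06 and 1.97 in si-NC, a difference of 0.16 (SE 0.10, limma adjusted p = 0.456). Only the slide 2 arrays exceeded the si-NC range, and a probe for another Vcan transcript had -0.02. A further Vcan probe and the second probes of Agrn and Fbln5 were too dim to be tested.

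**Figure D1:**
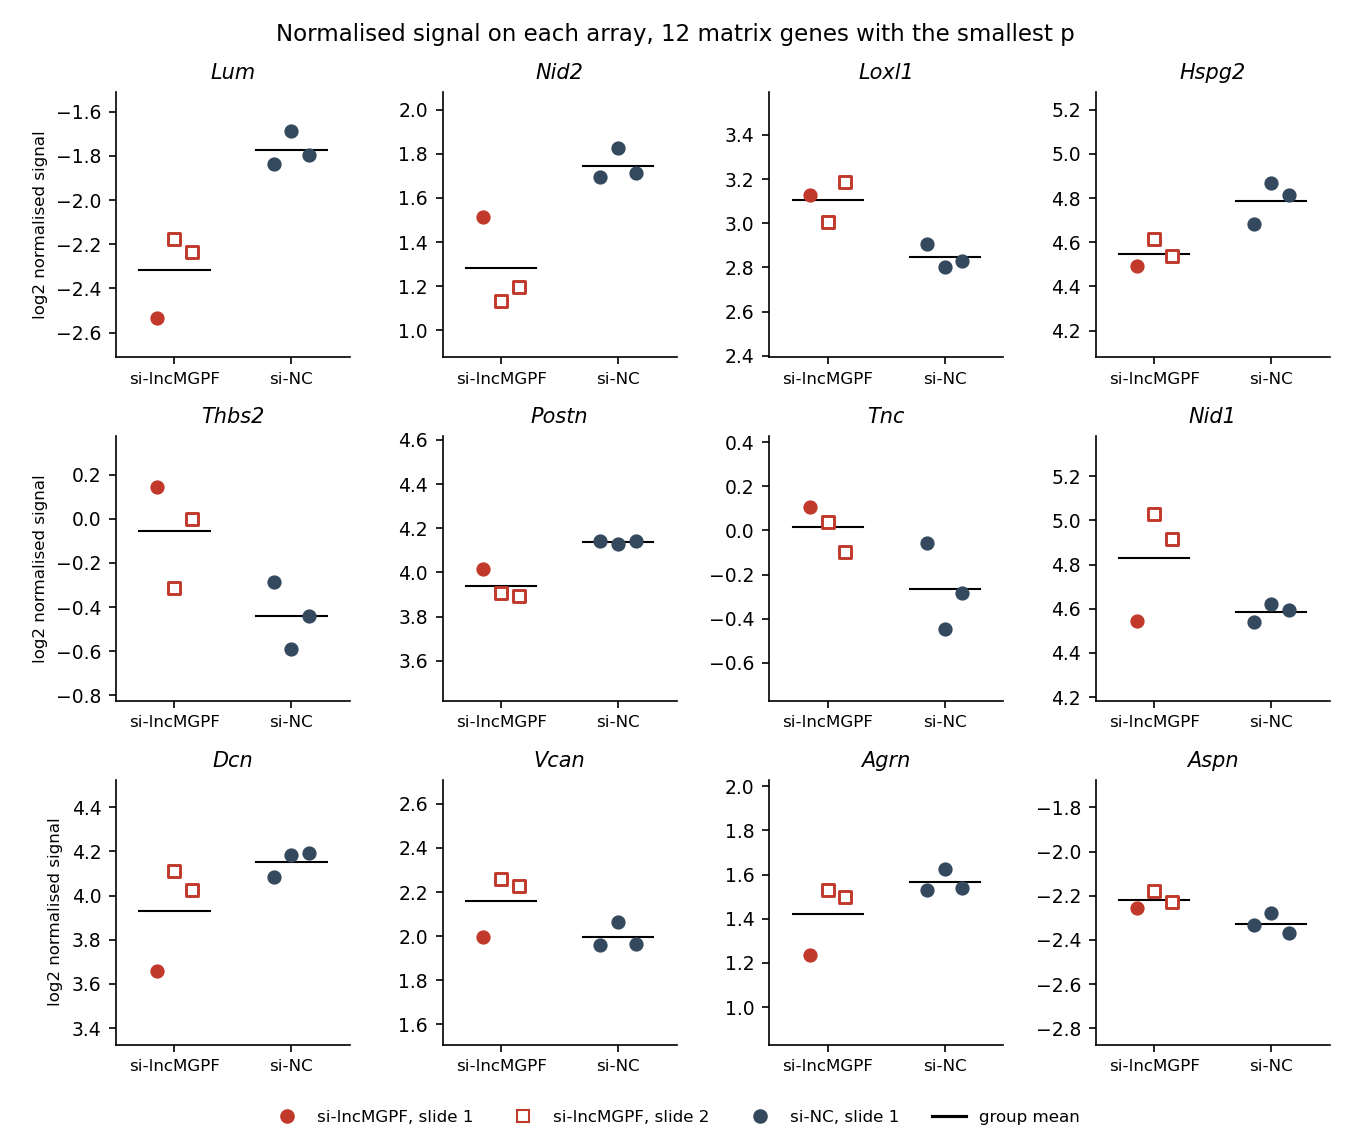
Log2 signal relative to the 75th percentile of each array (y axis, each panel spanning the same range) for the 12 matrix genes with the smallest p, with si-lncMGPF at left and si-NC at right. Filled circles are slide 1 arrays, open squares slide 2 arrays and lines group means (n = 3). Lum, Nid2, Loxl1, Hspg2, Postn and Aspn show no overlap, and Nid1 and Vcan are raised on the slide 2 arrays alone.

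The matricellular genes had differences on both sides of 0, 2 of 5 positive and 3 negative, with a median of -0.05 and 0 called. Thbs2 encodes thrombospondin-2, an inhibitor of vessel growth that also shapes collagen fibrils. Its signal was 0.14, -0.31 and -0.00 on the si-lncMGPF arrays, against -0.28, -0.59 and -0.44 on the si-NC arrays. The groups overlapped, since si-lncMGPF replicate 2 lay just below si-NC replicate 1. The difference of 0.38 (SE 0.15), or 1.3-fold, was the highest of the 31 genes, with a limma adjusted p of 0.286, and came to 0.58 on slide 1 and 0.28 on slide 2. Thbs1, which encodes thrombospondin-1, an activator of latent TGF-beta, had -0.13 (SE 0.10, limma adjusted p = 0.535).

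Tnc encodes tenascin-C, a matrix protein of regenerating muscle and tendon. It read 0.10, 0.04 and -0.10 in si-lncMGPF, against -0.06, -0.45 and -0.29 in si-NC. The groups overlapped by 1 array on each side. The difference was 0.28 (SE 0.13, limma adjusted p = 0.336), and a second probe had 0.20 (SE 0.12). Postn encodes periostin, which binds collagen and integrins. Its signal was 4.02, 3.91 and 3.89 in si-lncMGPF, against 4.14, 4.13 and 4.14 in si-NC. The si-NC arrays were nearly identical and all si-lncMGPF arrays lay below them, with a difference of -0.20 (SE 0.08, limma adjusted p = 0.313).

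Sparc encodes a collagen-binding glycoprotein that many matrix-producing cells secrete. Its brighter probe read 6.65, 6.79 and 7.02 in si-lncMGPF, against 6.64, 7.10 and 6.85 in si-NC, a difference of -0.05 (SE 0.15, limma adjusted p = 0.898). The other probe, with the same transcript accession, read 5.89, 5.48 and 4.99 in si-lncMGPF, against 6.07, 6.27 and 6.18 in si-NC. There the si-lncMGPF arrays lay below the si-NC arrays without overlap and spread over a wide range. The difference was -0.72 (SE 0.22), or 1.65-fold lower, the largest of any tested matrix probe, with a limma adjusted p of 0.238. It came to -0.28 on slide 1 and -0.94 on slide 2. The 2 probes of Sparc therefore disagreed in size, and its level is uncertain to that extent.

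The differences of fibronectin and the elastic fibre genes ran from -0.13 to 0.15. Of the 9, 4 were positive and 5 negative, with a median of -0.04 and 0 called. Groups without overlap were seen for 0 of them, against 22.4% of all tested genes. Fn1, which encodes fibronectin, read 7.10, 7.31 and 7.71 in si-lncMGPF, against 6.91, 7.52 and 7.23 in si-NC. The values interleaved, and the difference was 0.15 (SE 0.21, 95% interval -0.35 to 0.65). It was -0.12 on slide 1 and 0.29 on slide 2, the signs of the medians of the brightest bin. Fbn1 (fibrillin-1, the core of microfibrils) had -0.10 and Eln (elastin) 0.06. Among the fibulins, which tie elastin to microfibrils and basement membranes, the differences were -0.04 for Fbln1, -0.13 for Fbln2 and 0.11 for Fbln5. A second Fbln1 probe had 0.11, opposite in sign to the first. Efemp1 and Efemp2, further fibulins, had -0.10 and 0.02, and Ltbp2, a fibrillin-binding protein, had -0.04. Limma's adjusted p in this group ran no lower than the 0.607 of Fbn1.

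**Figure D2:**
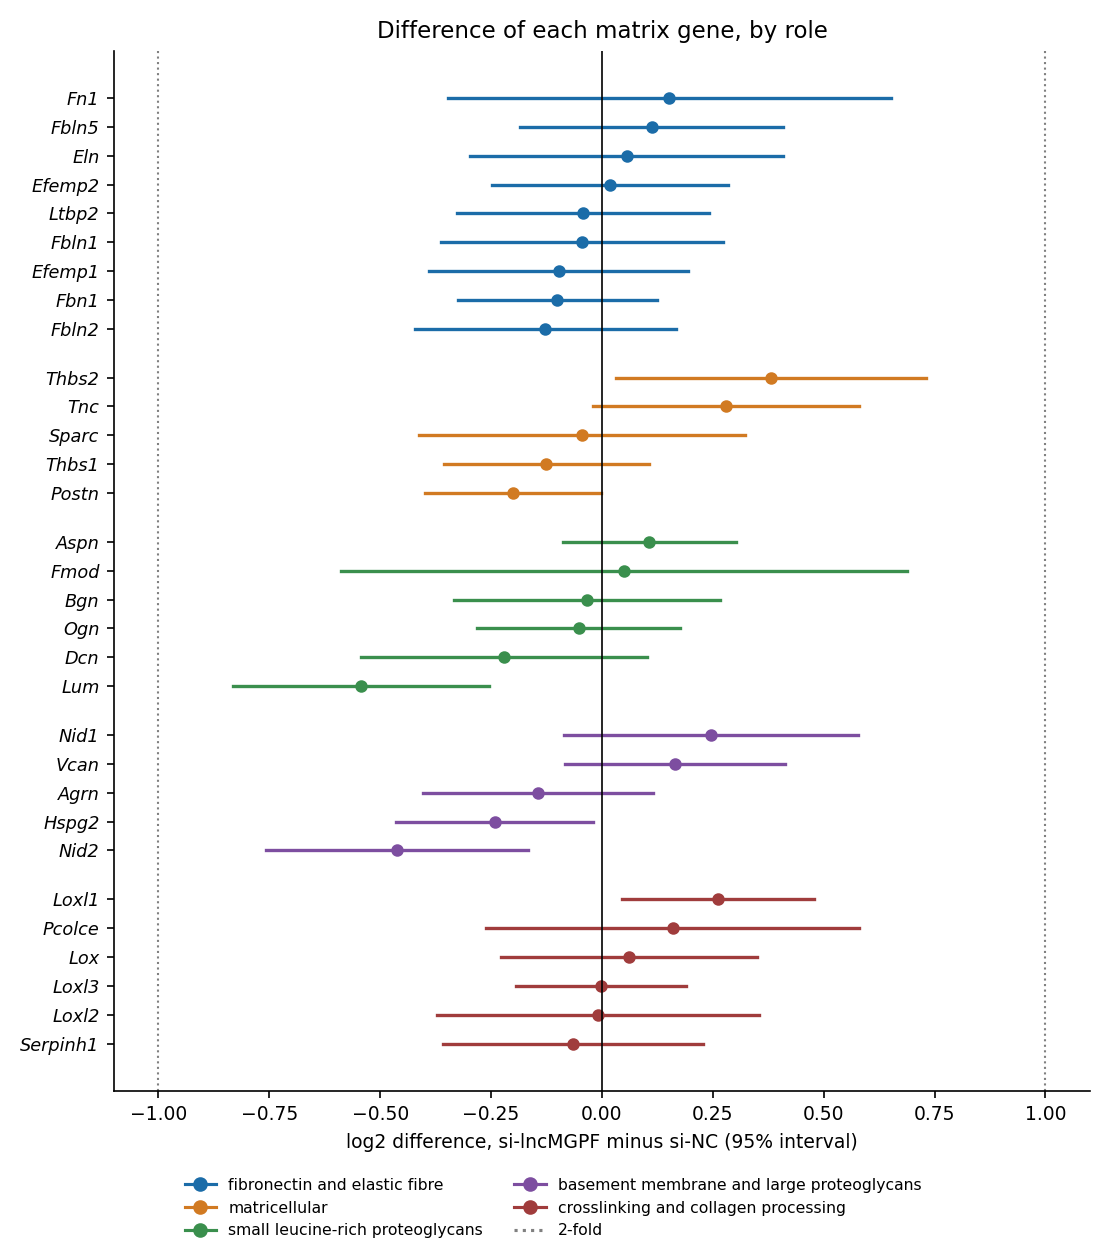
Log2 difference (x axis, si-lncMGPF minus si-NC) of the 31 matrix genes, grouped by role, with 95% intervals from limma as bars (n = 3 per group) and dotted lines at 2-fold. No interval reaches either dotted line, and Lum (-0.54) and Thbs2 (0.38) are the outermost points.

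In the crosslinking and collagen processing group 3 of 6 genes were positive and 3 negative, with a median of 0.03 and 0 called. Loxl1 encodes a lysyl oxidase that crosslinks elastin. It read 3.13, 3.01 and 3.19 in si-lncMGPF, against 2.90, 2.80 and 2.83 in si-NC. Every si-lncMGPF array lay above every si-NC array, with a difference of 0.26 (SE 0.09, limma adjusted p = 0.264) that was alike on the slides (0.28 and 0.25). A second, dimmer probe had 0.08 (SE 0.15) and overlapping groups, with 0.36 on slide 1 and -0.05 on slide 2.

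Lox, the founding lysyl oxidase, had 0.06 on its brighter probe and 0.19 on the other. Loxl2 had -0.01, with -0.18 and -0.17 on its 2 other probes, and Loxl3 had -0.002. Pcolce encodes an enhancer of procollagen processing. Its signal was 5.87, 6.48 and 6.38 in si-lncMGPF, against 6.08, 6.22 and 5.96 in si-NC. Here si-lncMGPF replicate 1 was the lowest array and the slide 2 arrays were the highest, and the difference was 0.16 (SE 0.18, limma adjusted p = 0.665). Serpinh1, the collagen chaperone of the endoplasmic reticulum, was the brightest of the group. It read 5.93, 6.19 and 6.28 in si-lncMGPF, against 6.09, 6.31 and 6.20 in si-NC. The groups overlapped, with si-lncMGPF replicate 1 the lowest array, and the difference was -0.07 (SE 0.12, limma adjusted p = 0.802).

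**Figure D3:**
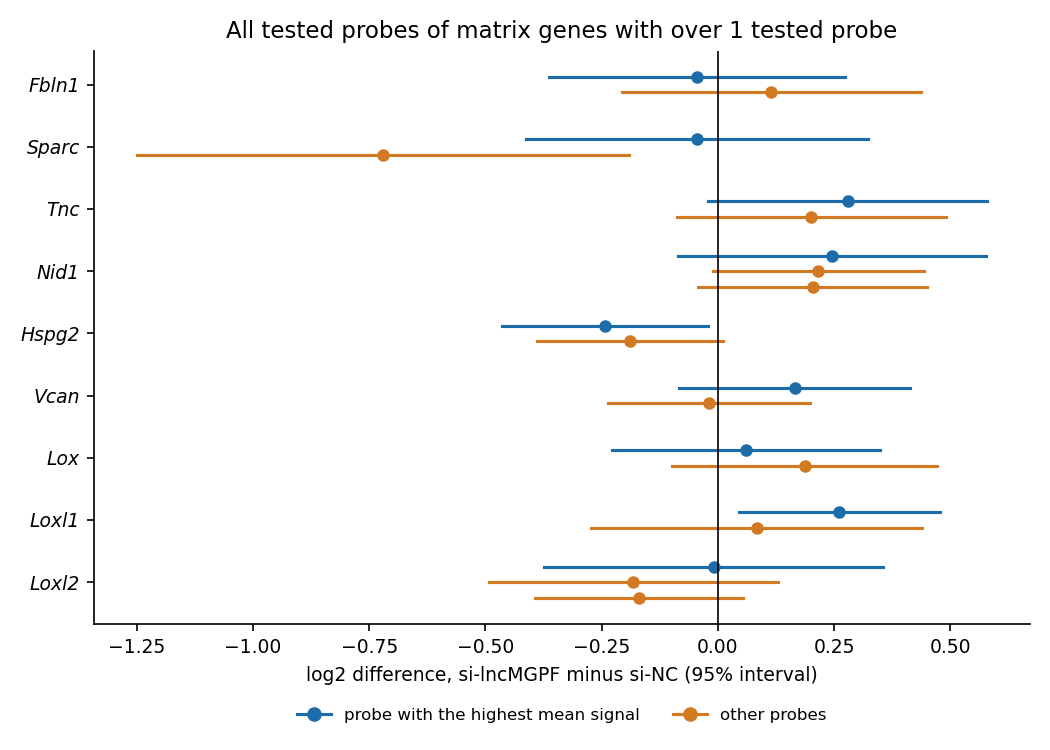
Log2 difference (x axis, si-lncMGPF minus si-NC) with 95% intervals for all tested probes of the 9 matrix genes that had more than 1. The blue probe has the highest mean signal and stands for the gene. The probes of Nid1, Hspg2 and Tnc lie together, while those of Sparc lie apart (-0.05 and -0.72).

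Set side by side, the slide 1 and slide 2 values share the same si-NC arrays and slide 2 holds no si-NC array, so a slide effect cannot be told apart from the variation among si-lncMGPF samples. The slide 1 value rests on 1 array. The median over the 31 genes was -0.12 on slide 1 and 0.04 on slide 2, and over all tested genes -0.07 and 0.06. On the brightest probes Pcolce (-0.22 and 0.35), Loxl2 (-0.32 and 0.15), Nid1 (-0.04 and 0.39), Dcn (-0.50 and -0.08) and Fbln1 (-0.32 and 0.09) differed most between the slides. Efemp1 (-0.10 on each), Loxl3 (-0.02 and 0.01), Loxl1 and Aspn (0.07 and 0.12) differed least on these probes. Other tested probes did not repeat each split. Those of Nid1 gave 0.23 and 0.21, and 0.05 and 0.28. Those of Loxl2 gave 0.02 and -0.28, and -0.29 and -0.11, and that of Fbln1 gave 0.26 and 0.04.

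**Figure D4:**
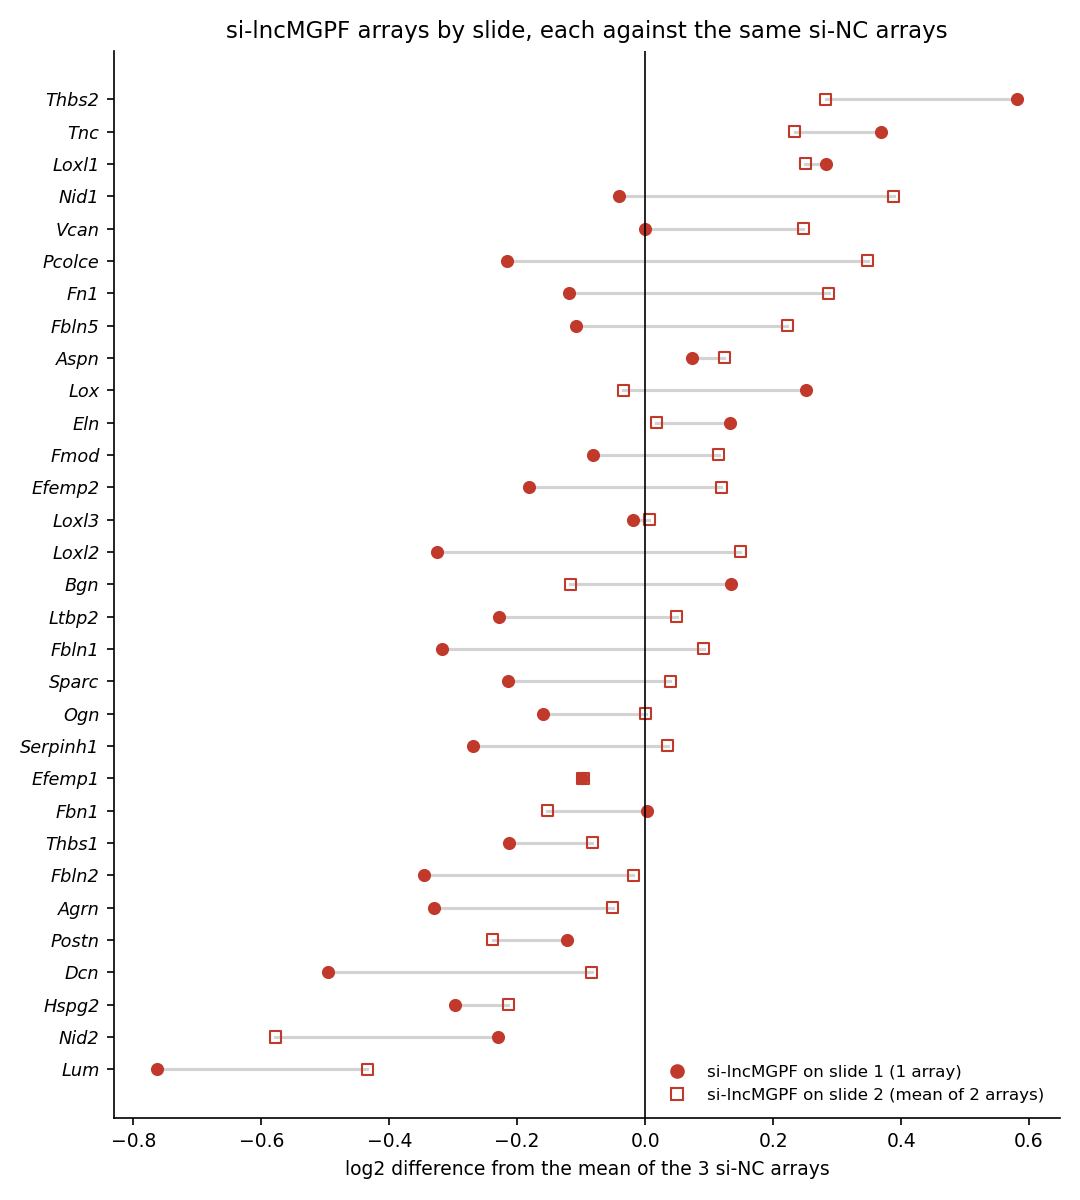
Log2 difference (x axis) of si-lncMGPF from the mean of the 3 si-NC arrays for each matrix gene, as 1 array on slide 1 (filled circles) and the mean of 2 arrays on slide 2 (open squares). Genes run from the highest difference at the top to the lowest at the bottom. Lum, Nid2, Hspg2 and Postn lie left of 0 and Thbs2, Tnc, Loxl1 and Aspn right of 0 on both slides, and for Efemp1 the symbols coincide.

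Lists of related genes gave the same count of calls. Of 43 other matrix glycoproteins and proteoglycans 32 were tested, 17 with a positive and 15 with a negative difference (median 0.01). Limma called 0. At an unadjusted p below 0.05 there were 4 of the 32 (2 in each direction), against 14.2% of all tested genes (6.04% positive, 8.14% negative). The smallest p belonged to Fbln7, a fibulin (-0.49, limma adjusted p = 0.191), Tgfbi, a TGF-beta-induced adhesion protein (0.43, adjusted p = 0.222), and Sdc3, a syndecan of muscle progenitors (-0.31, adjusted p = 0.291). The brightest, Gpc1 (a glypican) and Mgp (matrix Gla protein), had -0.04 and 0.08.

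Of 23 genes for collagen modification and crosslinking 22 were tested, 8 positive and 14 negative (median -0.02), with 0 called by limma. At an unadjusted p below 0.05 there were 4 of the 22 (3 positive, 1 negative), against 14.2% of all tested genes. Tgm2, the transglutaminase that crosslinks matrix proteins, read 2.06, 1.98 and 2.10 in si-lncMGPF, against 2.39, 2.49 and 2.45 in si-NC, a difference of -0.39 (SE 0.09, limma adjusted p = 0.187). Its groups lay apart with similar values on both slides (-0.38 and -0.40). Crtap, part of the prolyl hydroxylase complex, had 0.27 (adjusted p = 0.274) and Plod2, a lysyl hydroxylase, 0.25 (adjusted p = 0.278), while the brightest members Ppib and Fkbp10, which help collagen fold, had 0.12 and 0.05. Of 25 genes for glycosaminoglycan chain synthesis 24 were tested, 9 positive and 15 negative (median -0.05), with 0 called. An unadjusted p below 0.05 was reached by 2 of the 24, each negative, against 14.2% of all tested genes. The smallest p belonged to Hs6st1, Chst11 and Hs2st1, which had -0.22, -0.22 and -0.20 (limma adjusted p from 0.296 to 0.353). All 3 encode sulfotransferases, and the other sulfotransferase genes of that list, Ndst1, Ndst2 and Chst14, had 0.15, 0.06 and 0.02. The brightest members Chsy1 and Extl3 had 0.14 and -0.13.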

How the data were processed

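Total RNA labelled with Cy3 was read on 6 one-colour arrays (design build mm9), per the labels and file headers. The deposited scanner tables hold linear intensity that Feature Extraction 11.0.1.1 had background-subtracted, per the file headers. In the authors' deposited table of the series, intensity equals this processed signal at 44397 of 44397 spots. Processed signals were log2-transformed and scaled by subtracting each array's 75th percentile, with outlier spots left out and spots of a probe averaged, which hides a shift of most transcripts in 1 direction. A probe was above background where at least 50% of its spots were, and was tested if this held on every array of 1 group. Groups were compared with limma 3.58.1 (lmFit and eBayes, no covariate, R 4.3.3), with Benjamini-Hochberg adjustment over all tested probes at 0.05. The script was tested on simulated data.

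Accessions were matched to RefSeq symbols on another build (GRCm38.p6), so array positions are not given. The members and lists were chosen with earlier results of these data known. All 31 members are named, with every array's value for the 12 smallest p and the brightest member of each role, and for related lists the 3 smallest p and 2 brightest. Omd and Ecm2, as neighbours, Ndst1, Ndst2 and Chst14, and the array values of Tgm2 and Pcolce were added after their values were seen. Normexp was planned on mean spot signals and ran on median spot signals. Slide as a random block and cyclic loess were chosen after seeing the data. The number of arrays limits the precision. Figures were drawn with matplotlib 3.10.9.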

Additional observations from a re-analysis of the deposited data

How the results depend on the processing

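Under 20 alternative settings 11 of the 31 matrix genes kept the sign of their difference in each: Lum, Nid2, Hspg2, Postn, Dcn, Thbs1 and Agrn below 0, and Thbs2, Tnc, Loxl1 and Aspn above 0. Not every setting could move a sign. The authors' series table holds the same intensities, and the replicate number as a block left the median of the matrix genes at -0.03. Slide as a fixed block and the slide 1 arrays alone gave the same differences. Lum ranged from -0.76 to -0.33 (limma adjusted p from 0.00128 to 0.645) and Nid2 from -0.58 to -0.23 (limma adjusted p from 0.000851 to 0.645). The count of matrix genes called by limma stayed 0 under 17 of the 19 settings with a test. It was 12 genes (17 probes) with array weights, which gave 9.98 to si-NC replicate 3 and 2.94 to si-lncMGPF replicate 3 but 0.109 to si-lncMGPF replicate 1, and which called 13394 of all probes put 20 matrix genes above 0 and turned the sign of 11. Leaving out 1 array at a time gave 0 to 3 matrix genes, 0 to 4 matrix probes and 0 to 4105 of all probes. The 3 genes, Lum, Nid1 and Nid2 (limma adjusted p = 0.0237, 0.0261 and 0.0113), came without si-lncMGPF replicate 1, where group and slide cannot be told apart. Of all probes 26 were called in the main setting, 6 after quantile normalization, 8 after normexp, 0 without a filter on dim probes (5277 at an unadjusted p below 0.05) and 10 with slide as a fixed block. With slide as a fixed block, and on the slide 1 arrays alone, 8 matrix genes were above 0, against 13 in the main setting. After quantile normalization Fn1 had -0.06 and Fmod -0.23, and after normexp Efemp1 had 0.08 and Efemp2 -0.02, each opposite in sign to the main value. The cause was not tested. Loxl3, near 0, turned sign under both and under median centring. With the replicate number as a block limma called 0 of all probes (4430 at an unadjusted p below 0.05) and 0 matrix genes. The deviations of same-numbered samples correlated at 0.18, 0.32 and -0.06 over tested probes. For numbers 1 and 2 the same-numbered samples correlated best with each other, and for number 3 they did not. Whether the numbers mark paired samples cannot be told from these values.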
